A study of Mus musculus with 9 samples.

Results

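Endothelial cells line every blood vessel of the brain, and 10 genes that mark them were followed through the 3 layers of mouse piriform cortex. They comprised the junction genes Cldn5, Ocln, Cdh5, Pecam1 and Esam, the VEGF receptor genes Flt1 and Kdr, the Tie receptor genes Tek and Tie1, and the guidance receptor gene Robo4. For each gene the transcript with the highest mean count over the 9 samples was taken, and all 10 were found among 95533 transcript identifiers and passed the filter that left 56416 for testing. Tissue came from wild-type C57BL/6 mice, labelled as 8 weeks old, though the study's methods give an older age. From frozen coronal sections each layer was cut out under the microscope with a laser (laser-capture micro-dissection). Each of the 3 layers, labelled A, B or C, has 3 replicates, and since no source says which letter is layer I, II or III, the letters are used throughout. No treatment or altered genotype separated the groups, and since the labels do not say whether replicates came from separate animals, the p-values measure only the spread between these samples.

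In brain vessels, endothelial cells are sealed to each other by tight junctions of claudin-5 and occludin and by adherens junctions built on VE-cadherin, and this seal is the core of the blood-brain barrier. Their survival and sprouting are governed by vascular endothelial growth factor (VEGF) acting on Flt1 and Kdr, while angiopoietins acting on the Tie receptors regulate how quiescent vessels are. Robo4 is a roundabout receptor found mainly on endothelium, where it steadies the vessel wall.

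Total counts ranged from 23104306 to 76471683 per sample. Transcripts of the mitochondrial genome took 56.4 to 72.6% of the counts of layer A samples, 13.1 to 30.1% of layer B and 21.2 to 59.0% of layer C. Leaving these transcripts out before normalisation kept 10 and 9 of the endothelial genes past the test against layers B and C. Of all 56390 transcripts then tested, 9297 and 6453 passed in either direction. Levels are therefore given as normalised CPM, the count relative to a sample total scaled by a TMM factor (0.467 to 1.63), which lowers the weight of a few very abundant transcripts. The lowest count of any of the 10 genes was 5, for Tie1 in layer C replicate 2, against a detection floor of 3 counts that covers counting error alone. Isoforms of a gene often had nearly the same count, so a value may include reads from exons that the chosen transcript shares with its other isoforms.

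All 10 endothelial genes were higher in layer A than layer B, by 5.65-fold for Ocln to 12.8-fold for Tie1, and 9 of them were also higher in layer A than layer C (edgeR quasi-likelihood test, Benjamini-Hochberg adjusted p under 0.05). Of all tested transcripts, 10.7% passed in that direction against layer B and 6.98% against layer C, and 6.42% were higher in layer A than in both. In the opposite direction 5.83% and 4.35% passed, and none of the 10 genes was among these. The median log2 fold change of the 10 genes was 2.82 against layer B and 2.39 against layer C, beside -0.12 and -0.01 over all tested transcripts. Cldn5 was the gene that did not pass against layer C (adjusted p = 0.0615). It passed there under 5 of 10 alternative settings, the replicate number as a block among them (log2 fold change 2.30, edgeR adjusted p = 0.016). With single samples left out it passed in 2 of 9 fits, those without layer B replicate 1 or 3, and the adjusted p reached 0.414. In each of the 10 genes the lowest layer A sample lay above the highest layer B sample, as in 17.2% of tested transcripts, and above the highest layer C sample, as in 17% of them. Both held together in 12.7%. Between layers B and C none of the 10 passed. In tissue samples of this kind, fewer endothelial cells and less RNA per endothelial cell cannot be told apart. As normalised CPM is relative to a sample total, neither can be told from a different share of RNA from other cells.

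**Figure D1:**
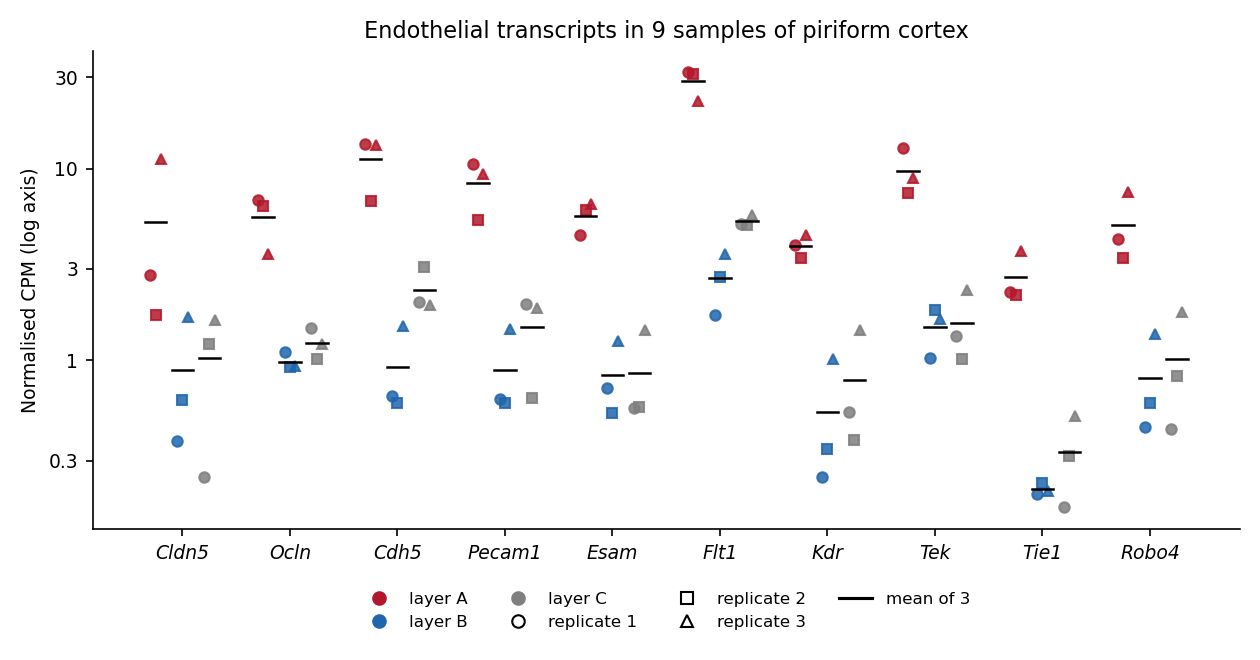
Normalised CPM of the 10 endothelial genes on a log axis, with colour for the layer, symbol shape for the replicate and a bar at the mean of 3 samples. The layer A samples sit above all samples of layers B and C in every gene, by a wide margin for Flt1 (22.5 against at most 5.71) and a narrow margin for Cldn5 (1.74 against at most 1.69).

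The chosen transcripts lay on 7 chromosomes of the mm10 build, and no exon of another annotated gene overlapped any of them. Esam and Robo4 were neighbours on chromosome 9, with 114056 bases between the transcripts, while the paired receptor genes Flt1 and Kdr (chromosome 5) and Tek and Tie1 (chromosome 4) were far apart. The 250 bases before the start of transcription are shown for a tight junction gene, both VEGF receptor genes and a Tie receptor gene, as examples of the sequence at which these genes start. Starts and letters are taken from RefSeq on GRCm38.p6, whose promoter table matched 7 of the 10 genes, and the capitals mark GGAA or its reverse complement TTCC, the core letters bound by ETS factors such as Ets1 and Erg.
Cldn5, chr16:18776597-18776846, forward strand: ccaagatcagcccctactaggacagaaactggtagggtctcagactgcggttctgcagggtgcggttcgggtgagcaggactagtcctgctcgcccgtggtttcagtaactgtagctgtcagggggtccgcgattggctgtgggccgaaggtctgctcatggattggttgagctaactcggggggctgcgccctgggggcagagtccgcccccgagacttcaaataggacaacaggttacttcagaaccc
Flt1, chr5:147726012-147726261, reverse strand: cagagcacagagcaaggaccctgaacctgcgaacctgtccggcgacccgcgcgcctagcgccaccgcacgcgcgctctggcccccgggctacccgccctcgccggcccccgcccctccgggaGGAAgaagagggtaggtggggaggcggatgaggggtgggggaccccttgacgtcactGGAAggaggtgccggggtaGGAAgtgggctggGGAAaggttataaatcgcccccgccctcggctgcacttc
Kdr, chr5:75978456-75978705, reverse strand: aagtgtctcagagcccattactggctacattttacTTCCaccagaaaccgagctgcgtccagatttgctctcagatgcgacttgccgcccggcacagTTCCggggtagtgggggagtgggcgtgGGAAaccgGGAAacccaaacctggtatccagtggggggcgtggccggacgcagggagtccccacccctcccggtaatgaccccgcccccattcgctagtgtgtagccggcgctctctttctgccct
Tek, chr4:94739039-94739288, forward strand: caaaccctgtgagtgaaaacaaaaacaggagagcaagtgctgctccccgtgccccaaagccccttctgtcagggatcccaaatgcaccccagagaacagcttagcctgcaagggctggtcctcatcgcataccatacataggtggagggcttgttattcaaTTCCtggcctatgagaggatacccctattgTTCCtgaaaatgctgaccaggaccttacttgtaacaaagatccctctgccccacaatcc
GGAA, read on both strands, occurred in 7 of the 8 windows of these 7 genes (Ocln has 2 starts) and in 93.4% of 32851 RefSeq windows of that length, so the endothelial share was close to that of all promoters. The Cldn5 window held none, and the count was 4 for Flt1, 4 for Kdr, 2 for Tek and 7 for Tie1. The longer form CAGGAA, which contains GGAA, was found in 3 of the 8 windows, those of Tek, Tie1 and Robo4, and in 25.7% of all windows. ACAAT, the core read by SOX factors, was in the Tek and Robo4 windows and in 27.7% of all. AGATAA, read by GATA factors, was in none of the 8 and in 9.99% of all windows, and TATAAA was in the Flt1 window alone and in 12.4% of all.

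The tight junction genes differed in which layer A sample stood out. Cldn5 (ENSMUST00000043577, chr16:18776847-18778262, a single exon) encodes claudin-5, the main sealing protein between brain endothelial cells. Its level was 2.79, 1.74 and 11.2 normalised CPM in replicates 1, 2 and 3 of layer A, 0.382, 0.623 and 1.69 in layer B and 0.245, 1.21 and 1.64 in layer C. The third layer A sample stood far above the other 2, and the lowest layer A sample exceeded the highest layer B sample by a factor of 1.03. The fitted difference was 5.93-fold against layer B (95% confidence interval 1.89 to 18.6, edgeR quasi-likelihood test, adjusted p = 0.0331) and 5.14-fold against layer C (1.65 to 16.0, adjusted p = 0.0615). Without layer A replicate 3 the difference from layer B was 2.54-fold (adjusted p = 0.277), and without layer B replicate 2 the adjusted p was 0.0900, so that the call was lost in both cases, as it was without layer B replicate 1. Without layer A replicate 3 the difference from layer C was 2.20-fold (adjusted p = 0.414).

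Ocln (ENSMUST00000069756, chr13:100496507-100552498) encodes occludin, a membrane protein of the tight junction strand. It measured 6.86, 6.41 and 3.59 normalised CPM in layer A, 1.10, 0.924 and 0.937 in layer B and 1.47, 1.02 and 1.22 in layer C. Here the third layer A sample was the lowest of its layer, the reverse of Cldn5, and layers B and C were close together. The difference was 5.65-fold against layer B (3.04 to 10.5, edgeR adjusted p = 0.00116) and 4.47-fold against layer C (2.42 to 8.27, adjusted p = 0.00568).

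Cdh5 (ENSMUST00000034339, chr8:104101625-104144511) encodes VE-cadherin, the adhesion receptor of endothelial adherens junctions. Its normalised CPM was 13.5, 6.81 and 13.3 in layer A, 0.651, 0.600 and 1.52 in layer B and 2.01, 3.06 and 1.94 in layer C. All 3 layers were separated in this gene, with layer C between the others. It was 12.1-fold higher in layer A than layer B (5.95 to 24.4, edgeR adjusted p = 0.000278) and 4.85-fold higher than in layer C (2.49 to 9.46, adjusted p = 0.00663).

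Pecam1 (ENSMUST00000080853, chr11:106654218-106715259) encodes CD31, an adhesion molecule that is widely used to stain vessels. It was at 10.6, 5.41 and 9.43 normalised CPM in layer A, 0.629, 0.600 and 1.46 in layer B and 1.96, 0.638 and 1.87 in layer C. Layers B and C overlapped, and the differences from layer A were 9.41-fold (4.35 to 20.4, edgeR adjusted p = 0.000927) and 5.51-fold (2.61 to 11.6, adjusted p = 0.00772). Esam (ENSMUST00000002011, chr9:37528078-37538319) encodes a smaller adhesion molecule of endothelial tight junctions. Its levels were 4.49, 6.08 and 6.53 in layer A, 0.719, 0.531 and 1.27 in layer B and 0.564, 0.574 and 1.44 in layer C. The means of layers B and C, 0.840 ± 0.384 and 0.859 ± 0.502 (SD, n = 3), nearly coincided, and layer A was 6.77-fold (3.22 to 14.2, edgeR adjusted p = 0.00193) and 6.37-fold higher (3.03 to 13.4, adjusted p = 0.00505).

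Flt1 had the smallest standard error of the 10 genes in each comparison (0.336 to 0.361 on the log2 scale). Flt1 (chr5:147635159-147725988) encodes VEGF receptor 1, which binds VEGF with high affinity and limits how much reaches Kdr. Its normalised CPM was 31.8, 31.3 and 22.5 in layer A, 1.73, 2.72 and 3.58 in layer B and 5.18, 5.10 and 5.71 in layer C. The 3 layers formed 3 separate groups, with layer C above layer B. The difference was 10.6-fold between layers A and B (6.24 to 18.1, edgeR adjusted p = 0.000144) and 5.33-fold between layers A and C (3.20 to 8.88, adjusted p = 0.00181).

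The Flt1 transcript with the highest mean count, ENSMUST00000110529, was the short form, which has 13 exons and codes for 688 residues. Such short forms are secreted and trap VEGF, as they lack the membrane span and kinase domain of the full receptor. The long form, ENSMUST00000031653, with 30 exons and 1333 residues, measured 34.0, 22.9 and 26.4 normalised CPM in layer A, 1.86, 2.56 and 3.29 in layer B and 2.55, 3.64 and 6.01 in layer C. Against layer B it was higher in layer A by a log2 fold change of 3.43 (edgeR adjusted p = 0.0002), and against layer C by 2.76 (adjusted p = 0.00177). The transcripts share 2226 bases, 35.4% of the short and 32.3% of the long form, and reads there could enter both counts. The ratio of short to long counts was 0.935, 1.36 and 0.854 in layer A, 0.928, 1.06 and 1.09 in layer B and 2.03, 1.40 and 0.949 in layer C. These ratios overlapped between all 3 layers and give no order of the layers.

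Kdr (ENSMUST00000113516, chr5:75932827-75978458) encodes VEGF receptor 2, which carries most of the VEGF signal in endothelium. It was at 3.98, 3.41 and 4.54 normalised CPM in layer A, 0.247, 0.346 and 1.02 in layer B and 0.540, 0.383 and 1.44 in layer C. Layer A was even (3.41 to 4.54), and in all 3 layers the third sample was the highest. The difference was 7.34-fold against layer B (2.97 to 18.1, edgeR adjusted p = 0.00504) and 4.77-fold against layer C (1.98 to 11.5, adjusted p = 0.0241). The call against layer C was lost when any of 5 libraries was left out, all 3 of layer A and replicates 1 and 2 of layer C, with adjusted p-values up to 0.13.

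Both Tie receptor genes were higher in layer A. Tek (ENSMUST00000102798, chr4:94739300-94874939) encodes Tie2, the receptor of the angiopoietins. It measured 12.9, 7.48 and 8.95 normalised CPM in layer A, 1.03, 1.82 and 1.64 in layer B and 1.35, 1.02 and 2.33 in layer C. Layers B and C were mixed, and layer A was 6.49-fold (3.42 to 12.3, edgeR adjusted p = 0.000903) and 6.05-fold higher (3.20 to 11.5, adjusted p = 0.00292). Tie1 (ENSMUST00000047421, chr4:118471191-118490061) encodes the partner receptor that modulates Tie2 and binds no angiopoietin strongly by itself. Its levels were 2.29, 2.20 and 3.72 in layer A, 0.202, 0.231 and 0.208 in layer B and 0.172, 0.319 and 0.511 in layer C. The layer B samples were nearly equal at 9 to 10 counts each, and layer A was 12.8-fold higher than layer B (5.55 to 29.3, edgeR adjusted p = 0.000672) and 7.91-fold higher than layer C (3.54 to 17.7, adjusted p = 0.00451).

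Robo4 (ENSMUST00000115046, chr9:37402033-37414021) was at 4.32, 3.41 and 7.61 normalised CPM in layer A, 0.449, 0.600 and 1.37 in layer B and 0.442, 0.829 and 1.79 in layer C. In all 3 layers the third sample was the highest, and no layer A sample fell to the level of the other layers. It was 6.34-fold higher in layer A than layer B (2.65 to 15.1, edgeR adjusted p = 0.00628) and 4.89-fold higher than in layer C (2.07 to 11.5, adjusted p = 0.0203). The call against layer C was lost without layer A replicate 1 or 3 or layer C replicate 1 or 2 (adjusted p 0.0508 to 0.112). Robo4 stood in the study's own list of layer candidates drawn from these samples, so its direction is not independent evidence. The study listed this same transcript under layer I, by its level over layer II. Its immunohistochemistry for Robo4 gave non-specific signal, so the candidate was not borne out by staining there.

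**Figure D2:**
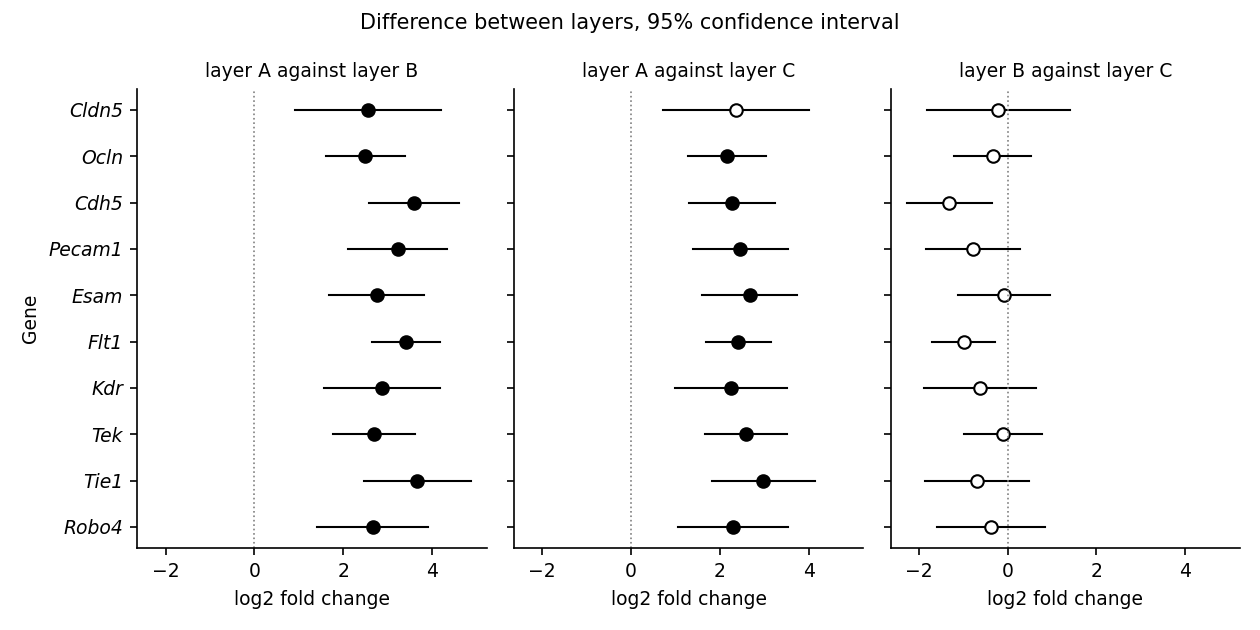
Log2 fold change of each endothelial gene between the layers named above each panel, with 95% confidence intervals and filled points where the adjusted p was under 0.05. Against layer B all 10 points are filled and lie between 2.50 and 3.67, against layer C the Cldn5 point is open, and between layers B and C all 10 are open and lie from -1.31 to -0.09.

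Layers B and C could not be separated by these genes after adjustment. All 10 fold changes were below 0, lower in layer B, with a median of -0.50 on the log2 scale beside 0.07 over all tested transcripts, and the edgeR quasi-likelihood test passed 0 of 10 genes, as it passed 0% of all tested transcripts. Without layer C replicate 3 the median of the 10 genes was 0.01, and without layer B replicate 3 it was -1.09. DESeq2 passed 0 of 10, with 124 calls among all tested transcripts. At an unadjusted p under 0.05, 2 of the 10 were lower in layer B, Cdh5 and Flt1, where 4.11% of all transcripts passed in either direction. Cdh5 was 2.49-fold lower in layer B (1.28 to 4.85, adjusted p = 0.908) and Flt1 was 1.99-fold lower (1.21 to 3.27, adjusted p = 0.886). In these same 2 genes every layer B sample lay below every layer C sample, which held for 4.67% of tested transcripts. For the other 8 genes the interval of the difference included no change, from 1.06-fold lower for Esam (0.519 to 2.18) to 1.71-fold lower for Pecam1 (0.822 to 3.55), and for 7 of these 8 the upper bound was above 2-fold.

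Per kilobase of transcript, the order of the 10 genes in layer A ran from Flt1 (4.53 ± 0.826 CPM per kilobase, SD, n = 3) through Cldn5 (3.71 ± 3.67), Esam (3.06 ± 0.576), Cdh5 (2.80 ± 0.950), Pecam1 (2.58 ± 0.827), Tek (2.10 ± 0.598), Ocln (1.39 ± 0.437) and Robo4 (1.32 ± 0.570) to Kdr (0.671 ± 0.0955) and Tie1 (0.669 ± 0.208). Neighbours in this order differed by less than the larger of their SDs, except Tek from Ocln and Robo4 from Kdr. Kdr and Tie1 also had the lowest levels per kilobase in layer B (0.0908 and 0.0522) and layer C (0.133 and 0.0816). Cldn5 led in layer B at 0.634 ± 0.490, ahead of Esam (0.450 ± 0.206). Flt1 led in layer C at 0.847 ± 0.0523, ahead of Cldn5 (0.728 ± 0.503). Both leads were smaller than the SD of Cldn5 in that layer.

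Other isoforms of the same genes gave the same direction. Of 20 further tested transcripts of the 10 genes, 20 were higher in layer A than layer B, with log2 fold changes of 2.25 to 4.39, and 16 were higher than in layer C. Over all tested transcripts 10.7% and 6.98% passed in that direction. As isoforms share reads, these are not 20 independent measurements, and Pecam1 ENSMUST00000106796 had the same count as the chosen transcript in every sample. Some isoforms passed the count filter only with the help of layer A samples, which favours this direction. The Kdr isoform at the top of the range, ENSMUST00000149573, held 0, 2 and 7 counts in layer B.

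The genes differed in how layer A replicate 3 compared with replicates 1 and 2. Its level over the mean of the other 2 was 4.95 for Cldn5, 1.97 for Robo4 and 1.65 for Tie1, but 0.880 for Tek, 0.715 for Flt1 and 0.541 for Ocln. The transcripts with the higher ratios were those richer in G and C, from 60.5% for Cldn5 down to 42.0% for Ocln. Across the 10 genes Spearman's rho of the ratio with GC content was 0.964, as a description over genes that share the same 3 libraries, and across 49323 annotated tested transcripts it was 0.27. After correction for GC content and transcript length, a step chosen after seeing the data, 10 and 9 genes still passed against layers B and C. Of all 49323 transcripts 9469 and 6463 passed in either direction. Cldn5 against layer B had an adjusted p of 0.037 after this correction (edgeR).

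**Figure D3:**
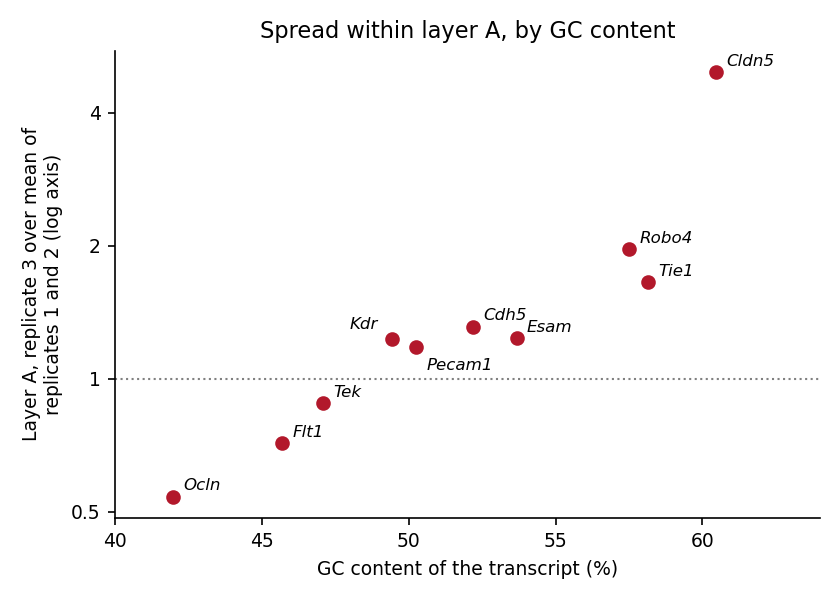
Ratio of the level in layer A replicate 3 to the mean of replicates 1 and 2, on a log axis, against the GC content of the transcript in percent, with a point for each of the 10 endothelial genes. The ratio climbs from 0.541 for Ocln at 42.0% to 4.95 for Cldn5 at 60.5%.

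Within layers, after each layer's mean was taken away, the genes varied together only in part. Over 45 pairs the median correlation across 9 samples was 0.378, and 38 were positive. Cldn5 and Robo4 tracked each other most closely (0.93), while Cldn5 and Ocln ran in opposite directions (-0.806). In layer B, replicate 3 was the highest sample for 7 of the 10 genes, by up to 3.44 times the mean of the other 2 for Kdr. Leaving that sample out raised the difference between layers A and B by over 1.5 times for 5 genes, to 11.03-fold for Cldn5, 14.2-fold for Pecam1, 18.5-fold for Cdh5, 13.8-fold for Kdr and 10.2-fold for Robo4. Leaving out layer C replicate 3 likewise raised the difference from layer C for Kdr (8.51-fold), Robo4 (8.46-fold), Cldn5 (7.94-fold), Tie1 (11.9-fold) and Esam (10.2-fold), and leaving out layer C replicate 1 ended the call of Cdh5 (adjusted p = 0.0541).

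The pathways around these genes were followed with lists of partner genes. Of 14 tested junction partners, 8 were higher and 2 lower in layer A than layer B, with a median log2 fold change of 1.45. The scaffold gene Cgnl1 (3.26, edgeR adjusted p = 0.000693) and the tricellular junction gene Lsr (3.21, adjusted p = 0.00214) were higher, and the scaffold gene Magi1 was lower (-1.73, adjusted p = 0.00418). The exons of Lsr overlap a gene on the other strand over 43.4% of their length, and the libraries did not keep strand. Against layer C, 6 partners were higher and 1 was lower.

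Among 7 VEGF ligands and co-receptors, 3 were higher in layer A than layer B and none was lower. The ligand gene Vegfa was at a mean of 22.6 normalised CPM in layer A, while layer B stood at 4.67 and layer C at 6.18, a log2 fold change of 2.27 against layer B (edgeR adjusted p = 0.000766). Flt4, the VEGF-C receptor gene, differed by 3.11 (adjusted p = 0.00241) and the co-receptor gene Nrp1 by 1.33 (adjusted p = 0.0214), while Vegfc had a value of -0.87 that did not pass. Against layer C, Vegfa (1.87, adjusted p = 0.005) and Flt4 (2.52, adjusted p = 0.012) were higher, and Nrp1 had a value of 0.52 that did not pass (edgeR adjusted p = 0.433). In the angiopoietin group, Ptprb, which encodes the phosphatase that acts on Tie2 and VE-cadherin, was higher by 3.58 (adjusted p = 0.000186). The ligand genes Angpt1 (0.55) and Angpt2 (1.10) did not pass.

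Slit proteins are ligands of the Robo family. Of 6 Slit, Robo and Unc5b genes, 0 were higher and 3 were lower in layer A than layer B, the Slit ligand genes Slit3 (-2.20, edgeR adjusted p = 0.0041), Slit1 (-2.15, adjusted p = 0.00952) and Slit2 (-1.28, adjusted p = 0.0202). Against layer C, Slit3 (-2.12, edgeR adjusted p = 0.00924) and Slit2 (-1.34, adjusted p = 0.0229) were lower, and Slit1 had a value of -1.52 that did not pass (adjusted p = 0.0659). Robo2, a receptor of neurons, had a value of -0.78 that did not pass. Unc5b, a receptor reported to bind Robo4, had a value of 1.09 that did not pass either.

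Endothelial transcription factor genes were higher in layer A than layer B in 8 of 11 cases and lower in 0, with a median log2 fold change of 3.03. Lef1 (4.08, edgeR adjusted p = 0.000201), Sox17 (3.90, adjusted p = 0.000326) and Ets1 (3.54, adjusted p = 0.000325) led, and Tal1 had a value of -0.32 that did not pass. For Lef1, 34.7% of the exon length is overlapped by a gene on the other strand. Against layer C, 5 of the 11 were higher. Of 10 genes of Wnt and norrin signalling, which sets up the barrier, 8 were higher against layer B and 7 against layer C, among them Lrp5 (3.23, adjusted p = 0.00116), Apcdd1 (3.06, adjusted p = 0.000974) and Tspan12 (2.76, adjusted p = 0.00276). Blood-brain barrier transporter genes passed in 9 of 10 cases against each of the other layers. These included the glucose transporter gene Slc2a1 at 129 ± 7.58 normalised CPM in layer A, while layer B stood at 24.2 ± 7.23 and layer C at 34.4 ± 5.49 (SD, n = 3), and Slc22a8 (3.94, adjusted p = 0.000267), which the study had also listed from these samples. The transferrin receptor gene Tfrc, at -0.27, did not pass.

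Further endothelial markers passed in 13 of 19 cases against each of the other layers, led by Vwf (4.92, edgeR adjusted p = 0.000177) and Cd93 (3.96, adjusted p = 0.000148). Plvap, a gene of leaky vessels without a barrier, was low everywhere, at means of 0.180 normalised CPM in layer A and 0.600 in layer B, and did not pass. Of 5 arterial genes 2 were higher in layer A than layer B, Bmx (3.38, adjusted p = 0.0198) and Sema3g (2.72, adjusted p = 0.0402), and Efnb2, which neurons also express, was lower (-1.25, adjusted p = 0.00551). Of 5 venous genes 3 were higher, such as Vcam1 (3.75, adjusted p = 0.000267) and Ephb4 (3.55, adjusted p = 0.0031), and 1 was lower, Ackr1 (-2.18, adjusted p = 0.000695), whose transcript shares 9.8% of its exon length with the neighbouring gene Cadm3. All 4 tested lymphatic genes were higher, among them Pdpn (3.10, adjusted p = 0.0011) and Lyve1 (2.75, adjusted p = 0.0196), which fibroblasts and macrophages also carry, and the lymphatic gene Ccl21a was listed at 0 in all 9 samples.

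**Figure D4:**
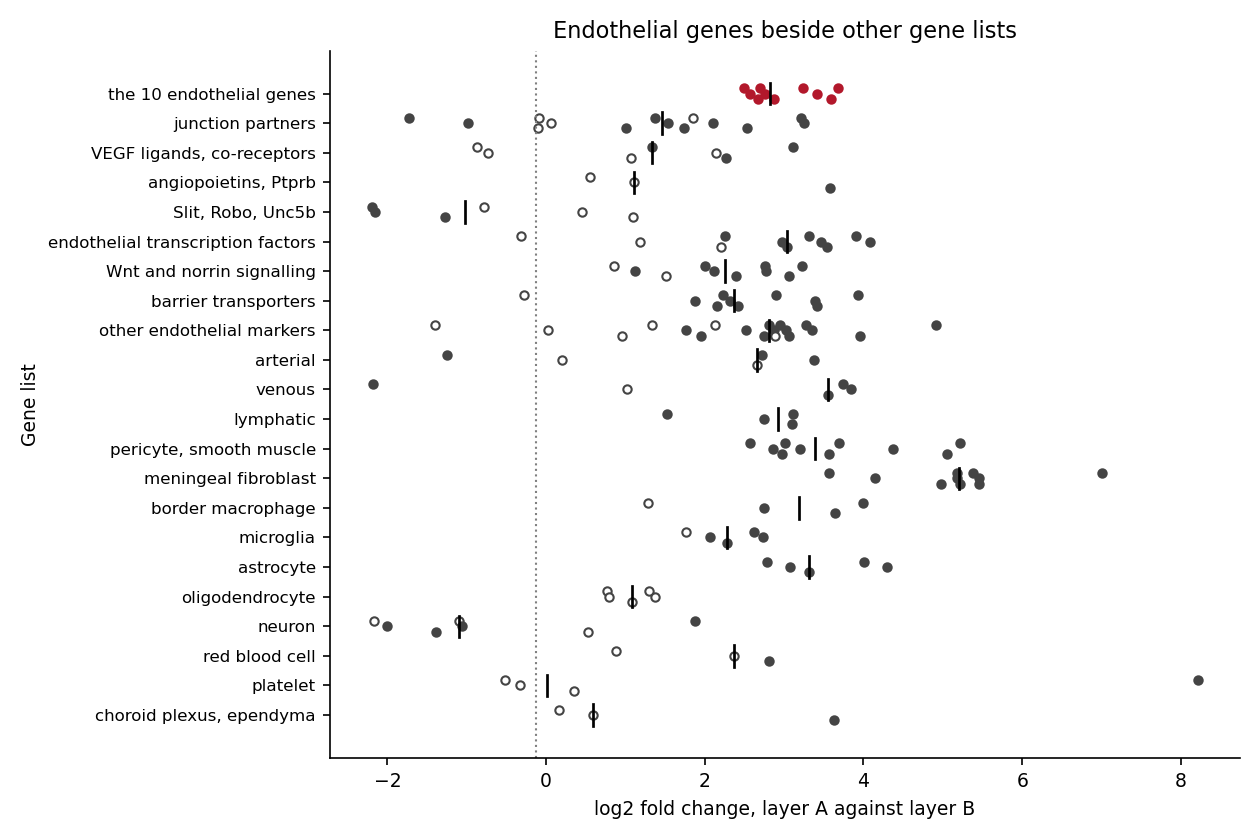
Log2 fold change of layer A over layer B for the tested genes of 22 lists, with a point per gene (filled where the adjusted p was under 0.05), a bar at each list's median and a dotted line at -0.12, the median of all tested transcripts. The 10 endothelial genes lie from 2.50 to 3.67, below most meningeal fibroblast genes (median 5.20), while oligodendrocyte genes hold no filled point.

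Several lists of markers of other vessel, meningeal and glial cells were also higher in layer A, and their part in the result was not tested. Pericyte and smooth muscle genes were higher in layer A in 10 of 10 cases against layer B and 9 of 10 against layer C. Their summed level was 250.3 to 406.1 normalised CPM across layer A, 18.3 to 62.3 across layer B and 51.4 to 73.5 across layer C. Myh11, the smooth muscle myosin gene, was higher by 5.06 (edgeR adjusted p = 0.000162), Anpep by 5.22 (adjusted p = 0.000164) and the pericyte gene Cspg4 by 2.57 (adjusted p = 0.000424). Meningeal fibroblast genes were higher in 10 of 10 cases against both layers, with a summed level of 215 to 664 across layer A, 5.38 to 21.1 across layer B and 8.67 to 40.7 across layer C. Among them were Ogn (7.0, adjusted p = 0.000101) and the collagen gene Col1a2 (5.22, adjusted p = 0.0002). For comparison, the summed level of the 10 endothelial genes was 74.2 to 93.4 across layer A, 7.14 to 14.7 across layer B and 13.9 to 19.9 across layer C.

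Astrocyte genes, whose end-feet cover brain vessels, passed in 5 of 5 cases against both layers, for example Gfap (4.29, edgeR adjusted p = 9.68e-05) and Aqp4 (4.01, adjusted p = 0.0002), with summed levels of 769 to 1286 normalised CPM across layer A, 62.5 to 158.8 across layer B and 114 to 151 across layer C. Microglia genes passed in 4 of 5 cases against each layer, including P2ry12 (2.73, adjusted p = 0.000814), and border macrophage genes in 3 of 4, including Mrc1 (4.0, adjusted p = 0.000905). Oligodendrocyte genes passed in 0 of 5 cases against either layer by edgeR or DESeq2, and 0 had an unadjusted edgeR p under 0.05, with a median of 1.08 against layer B and -0.19 against layer C. Neuronal genes were mixed, with 1 of 7 higher, Camk2a (1.87, adjusted p = 0.0016), and 3 lower in layer A than layer B, Snap25 (-2.0, adjusted p = 0.0052), Rbfox3 (-1.39, adjusted p = 0.00612) and Tbr1 (-1.06, adjusted p = 0.0279). Tbr1, a marker of excitatory cortical neurons, was detected in every layer, at means of 24.7, 51.5 and 36.8 normalised CPM in layers A, B and C.

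The red cell genes Hba-a1 and Hba-a2 were listed at 0 in all samples, and of the 3 tested red cell genes only Hbb-bt passed against layer B (2.81, edgeR adjusted p = 0.0278). Of 4 tested platelet genes only Ppbp passed, with no count in any layer B sample. Of 3 tested choroid plexus and ependymal genes only Kcnj13 passed (3.63, adjusted p = 0.00159), with 49.1% of its exon length overlapped by a gene on the other strand.

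The genes whose pattern over the 9 samples was most like the mean pattern of the 10 were sought among the highest transcripts of all other genes, with Pearson's r as the measure and 22263 genes compared. The 8 closest had r from 0.990 to 0.997, as a description of samples that fall into a high and a low group. They were the transcript ENSMUST00000075935, which had no annotation here, Dab2 (an endocytic adaptor), Ddr2 (a collagen receptor), Slc13a4 (a sulfate transporter), Slc2a1, Rcsd1, Ptprb and Cavin1 (a caveolar coat protein). Dab2 averaged 12.8 ± 3.74 normalised CPM in layer A, 0.686 ± 0.401 for layer B and 1.46 ± 0.727 for layer C (SD, n = 3), and Ptprb averaged 81.5 ± 20.5, 6.83 ± 3.38 and 12.7 ± 4.03. Of the 10 genes themselves, Kdr (0.97) and Tie1 (0.969) were closest to the mean of the other 9, and Cldn5 (0.795) was the farthest.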

How the data were processed

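The authors extracted RNA from the cut tissue, amplified it with the Ovation system, made libraries that do not keep strand and sequenced paired 50-base reads without molecular identifiers. Per the labels, bcl2fastq 1.8.4, Bowtie, the mm10 build and HTSeq 0.5.3 were used; the Ensembl release and the handling of reads shared by transcripts are not given in the sources used here. The deposited values are raw counts per transcript, 95533 per sample. Identifiers were joined to GENCODE M21 of the same assembly (86.7% found).

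From these counts, a transcript was kept when 3 or more samples held at least 10 counts (56416), totals were scaled by TMM, and each pair of layers was compared by the quasi-likelihood F-test of edgeR (4.0.16, with R 4.3.3), all 9 samples in the fit, no block, and Benjamini-Hochberg adjustment over all transcripts (threshold 0.05). Standard errors and 95% intervals follow from that test. DESeq2 1.42.0 and the alternatives named in the closing section were also run, and the code was tested on simulated data. Pairs of layers share samples, so their results are not independent. The genes, the 21 other lists and the tests were chosen with earlier results of these data known. The text names all 10 genes, up to 4 genes per list (smallest p-values between layers A and B and, where few fell, the lowest fold change) and the 8 genes of most similar pattern; 4 promoters were picked after their matches were seen. Histology and tracing were not analysed here.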

Additional observations from a re-analysis of the deposited data

How the results depend on the processing

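With DESeq2 size factors, the DESeq2 test, no filter, sums of counts by gene, the highest transcript of each gene, only the 6 samples compared, mitochondrial transcripts left out, or GC content and length trends removed (the last added after seeing the data), 10 of 10 endothelial genes stayed higher in layer A than layer B, and 9 or 10 than in layer C. In these fits the share of all features called in either direction against layer B ranged from 10795 of 79414 (no filter) to 5006 of 22263 (highest transcripts). Against layer C it ranged from 7198 of 79414 to 3749 of 22263 in the same settings. With at least 10 counts asked in all 9 samples, 7 of the 10 were tested, and 7 and 6 passed. There 6928 and 5133 of all 33423 transcripts passed in either direction. Whether replicate numbers pair the samples is not given by the labels and could not be told from the counts. Correlations of same-numbered deviations ran from -0.186 to 0.243, with 4 of 9 over 0.1. Those of samples with different numbers ran from -0.369 to 0.394, with 6 of 18 over 0.1. With the number as a replicate block 10 genes passed against layer B, 10 against layer C and 0 between layers B and C. Of all 56416 transcripts 9184, 6384 and 0 passed in either direction. Leaving out single samples gave 9 to 10, 6 to 10 and 0 to 0 calls. Over all tested transcripts the calls ranged from 5570 to 11337, 1369 to 9740 and 0 to 17. The fewest against layer C, 1369 of 55950 transcripts and 6 of the 10 genes, came without layer C replicate 1. Of 187 refitted values per comparison, 184 kept their side of the threshold against layer B and 170 against layer C, where 10 lost it and 7 gained it, all 7 for Cldn5 (adjusted p 0.0154 to 0.0469). Between layers B and C, 8 values changed sign with a sample left out, none past the threshold, in Cldn5 (-1.11 to 0.38 over the samples left out), Kdr (-1.56 to 0.17), Tek (-0.31 to 0.29), Esam (-0.59 to 0.54) and Robo4 (-1.07 to 0.37). The cause was not tested. Counts of 10 or fewer, down to 5 for Tie1 in layer C replicate 2, limit the precision of fold changes.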
